A study of Mus musculus with 54 samples.

Results

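The glycolytic enzymes from phosphofructokinase to pyruvate kinase were taken as 10 genes, found by symbol among the 45802 genes of the deposited table. They are Pfkl, Pfkp and Pfkm for phosphofructokinase, Aldoa for aldolase, Tpi1 for triose phosphate isomerase, Gapdh for glyceraldehyde phosphate dehydrogenase, Pgk1 for phosphoglycerate kinase, Pgam1 for phosphoglycerate mutase, Eno1 for enolase and Pkm for pyruvate kinase. All 10 passed the filter on low values. RNA was sequenced from mouse Th17 cells, the helper T cells that make interleukin 17, differentiated in vitro from splenic and lymph node CD4+ CD25- T cells of the C57BL/6 strain, isolated at about 90% purity. Every culture received antibodies to CD3e, CD28, IFN-γ and IL-4 together with TGF-β1, IL-6 and IL-1β, and a division dye. The vehicle group received DMSO, another group 100 µM linezolid, and the last 60 mM Arg C (the unit as labelled), each for 96 h. Arg C, which the labels do not spell out, is read here as argyrin C, a bacterial peptide. Linezolid is an antibiotic of unrelated structure, and argyrin C and linezolid are known to block protein synthesis in mitochondria. Live CD4+ cells were sorted by dye dilution into cycle 2 (1 division), cycle 3 (2 divisions) and cycle 4 (3 or more divisions). With 2 experiments this gave 18 samples, 6 per drug, and 3 technical replicate libraries of each.

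Glycolysis turns glucose into pyruvate in the cytosol. Phosphofructokinase commits sugar to the pathway, aldolase splits the doubly phosphorylated hexose, and triose phosphate isomerase interconverts the products. The steps from Gapdh to Pkm form the lower pathway, in which Pgk1 and Pkm make ATP without oxygen and Gapdh makes NADH. Activated T cells, Th17 cells among them, are known for a high rate of glycolysis with release of lactate, and the factors HIF-1 and MYC are known to drive many genes of the pathway.

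Values are RPKM, read counts divided by gene length and library size. On this scale levels of different genes can be set side by side as far as the lengths used are right. The samples held 24.3 to 36.9 M reads. The 3 libraries of a sample differed by 1.04 to 1.11 times counting noise (chi-square over its degrees of freedom) and were averaged as 1 sample. Within an experiment, the cycles 2, 3 and 4 of a drug are, as far as the labels tell, sorts of the same treated cells, so each drug has 2 independent units and p-values over 6 samples can be too low. Which animals gave the cells of each experiment is not stated in the labels. Of the 6 Th17 and T cell markers, all 6 reached 1 RPKM in a DMSO sample, 5 in a linezolid sample and 5 in an Arg C sample. Their sum was 517 to 789.9 RPKM in DMSO, 419 to 503 under linezolid and 362 to 417 under Arg C. Markers of B, NK and red cells stayed under 1 RPKM, with Ncr1 and Hbb-bs at 0 in all samples. Of 2 CD8 T cell markers 1 reached 1 RPKM, and their sum was 5.69 to 9.54 RPKM in DMSO, 4.80 to 8.81 under linezolid and 4.24 to 6.80 under Arg C. Of 5 myeloid and dendritic markers 3 reached 1 RPKM in DMSO, and their sum was 76.1 to 108 RPKM there, 19.5 to 28.5 under linezolid and 19.9 to 28.1 under Arg C. This fall runs alongside those below, and its part in them was not tested. In bulk RNA, fewer cells expressing a gene and less of its RNA per cell cannot be told apart.

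In DMSO, the 10 genes together took 2.16 to 2.47% of the reads in genes. The share was 0.448 to 0.632% under linezolid and 0.360 to 0.606% under Arg C, so no drug sample came near the DMSO range. In the other direction, ribosomal-protein genes took 17.2 to 18.7% of reads in DMSO, 20.9 to 27.4% in the linezolid samples and 27.7 to 31.7% in the Arg C samples. By construction of RPKM, such a gain lowers the values of all other genes. By mean level in DMSO the order was Pgk1 (2382 RPKM), Aldoa (1966), Pkm (1292), Eno1 (1033), Gapdh (1012), Tpi1 (658), Pgam1 (546), Pfkp (45.9), Pfkl (34.2) and Pfkm (12.5). Eno1 and Gapdh did not differ beyond their spread (SD 51.8 and 99.3, n = 6). On the RPKM scale the 3 phosphofructokinase genes thus lay an order of magnitude or more below the genes of the later steps. The gene lengths recovered from the values were 11492 bases for Pfkp, 4065 for Pfkl and 3595 for Pfkm. If the Pfkp messages in these cells are shorter than that, its RPKM is understated, which was not tested.

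**Figure D1:**
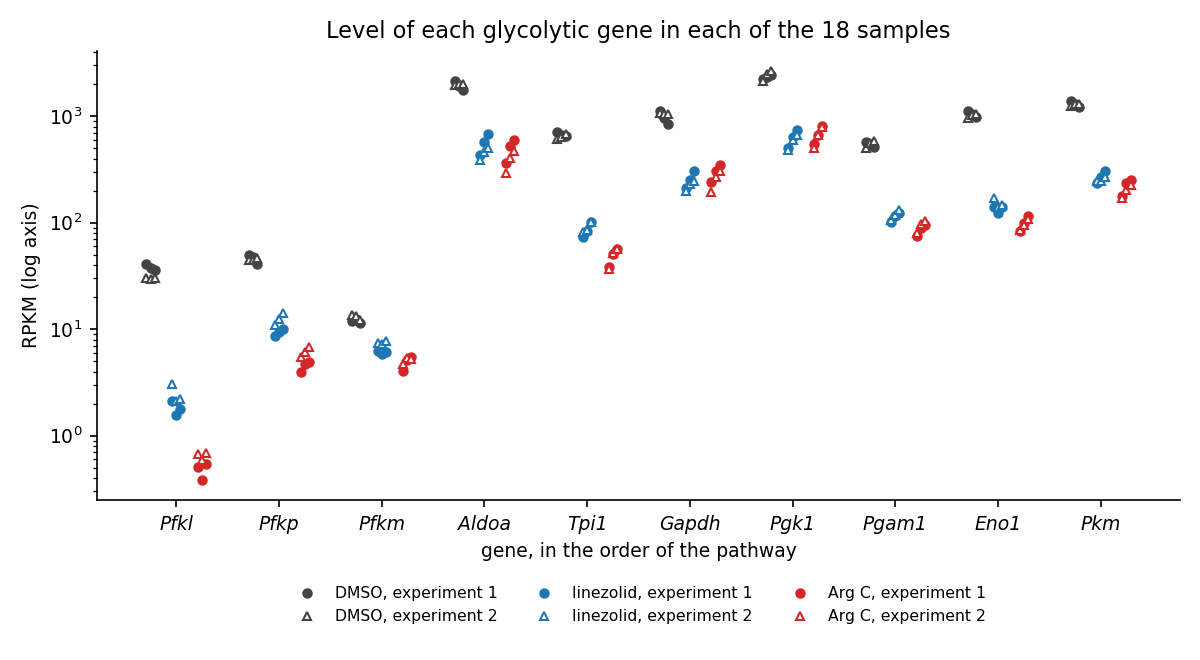
RPKM (log axis) of the 10 genes, in pathway order, in each of the 18 samples; colour gives the drug, symbol the experiment, and within a drug the points run from cycle 2 on the left to cycle 4 on the right. For every gene the DMSO samples lie above all drug samples, with the widest gap for Pfkl (29.8 RPKM at the lowest in DMSO against 3.08 at the highest with a drug). How many of all tested genes separate in this way was not counted. Of them, 70.0% were called lower with Arg C and 54.5% with linezolid.

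The sequences just upstream of 4 of these genes are shown because all 10 genes fell together. These 4 each have 1 start site and run from no motif match to 3. HIF-1 is known to bind a core written here as ACGTG or GCGTG, and both strands were searched. RefSeq promoter windows (GRCm38.p6) matched all 10 genes with 18 start sites, and the 250 bases before each start were read. Of these 18 windows 14 held ACGTG or GCGTG, against 38.6% of all 32851 windows in the table, and 7 held ACGTG, which is counted in the 14, against 16.6%. Start sites of a gene can overlap, so windows are not independent. The windows of the table were not matched to those of the 10 genes by base composition or expression. Capitals mark the matches, 5′ to 3′ on the gene's strand, where CACGT and CACGC are the motifs of the other strand, and bases inside an exon of the GENCODE annotation of this build are left off. A match to so short a motif is a description and not a binding site. Pfkl (chr10:78009808-78010004, minus strand) holds 1 match, GCGTG. Pgk1 (chrX:106186850-106187099, plus strand) and Pgam1 (chr19:41911621-41911870, plus strand) hold 2 and 3 matches, ACGTG among them. The bases just after the Pgam1 window were not found whole in a GENCODE transcript of that gene, so its start site is less certain. No match lies in the 250 bases before Tpi1, of which chr6:124814297-124814408 (minus strand) is shown.
Pfkl: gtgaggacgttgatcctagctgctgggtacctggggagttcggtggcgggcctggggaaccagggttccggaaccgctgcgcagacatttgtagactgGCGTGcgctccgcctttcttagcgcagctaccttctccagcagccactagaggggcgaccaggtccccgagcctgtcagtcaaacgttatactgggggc
Tpi1: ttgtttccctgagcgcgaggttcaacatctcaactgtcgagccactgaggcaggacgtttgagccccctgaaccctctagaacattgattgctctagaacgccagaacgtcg
Pgk1: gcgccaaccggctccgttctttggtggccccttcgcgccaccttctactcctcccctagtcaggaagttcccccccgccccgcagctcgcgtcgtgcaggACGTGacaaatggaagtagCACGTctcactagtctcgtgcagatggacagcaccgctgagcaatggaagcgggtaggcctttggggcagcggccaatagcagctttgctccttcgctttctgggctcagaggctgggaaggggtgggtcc
Pgam1: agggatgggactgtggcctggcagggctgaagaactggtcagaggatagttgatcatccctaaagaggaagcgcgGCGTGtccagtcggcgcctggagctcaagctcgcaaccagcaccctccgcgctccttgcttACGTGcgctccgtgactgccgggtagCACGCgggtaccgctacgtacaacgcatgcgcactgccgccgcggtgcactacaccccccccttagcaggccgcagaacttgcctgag

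The first comparison asked how Arg C changes these genes at matched division cycle. All 10 fell, against 70.0% of the 11004 tested genes called lower, with a median log2 fold change of -2.61 over the 10 and -0.47 over all tested genes. Each gene was lower in 6 of 6 matched pairs of samples, a count not made for all tested genes. The falls ranged from -1.18 (Pfkm) to -4.48 (Pfkl), on the log2(RPKM + 1) scale. Linezolid also lowered all 10, against 54.5% of tested genes called lower, with a median of -2.15 over the 10 and -0.21 over all, and again in 6 of 6 pairs each. Calls are limma's, at a Benjamini-Hochberg adjusted p under 0.05. Both drugs are set against the same DMSO samples. Within each cycle the count was 10 of 10 lower with either drug, while 62.7, 63.0 and 63.5% of tested genes were lower with Arg C and 37.1, 46.0 and 44.3% with linezolid in cycles 2, 3 and 4. After median-ratio scaling, which brings the median of all genes to 0.01 for both drugs, the 10 genes were still lower with each drug, at -0.59 (Pfkm) to -4.03 (Pfkl) with Arg C and -0.53 (Pfkm) to -3.19 (Pfkl) with linezolid. Gapdh and Pgk1 then had -1.22 and -1.20 with Arg C. All genes called lower then made up 41.4 and 36.3%, and called higher 41.9 and 38.0%, against 16.5 and 21.0% higher on the RPKM scale.

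**Figure D2:**
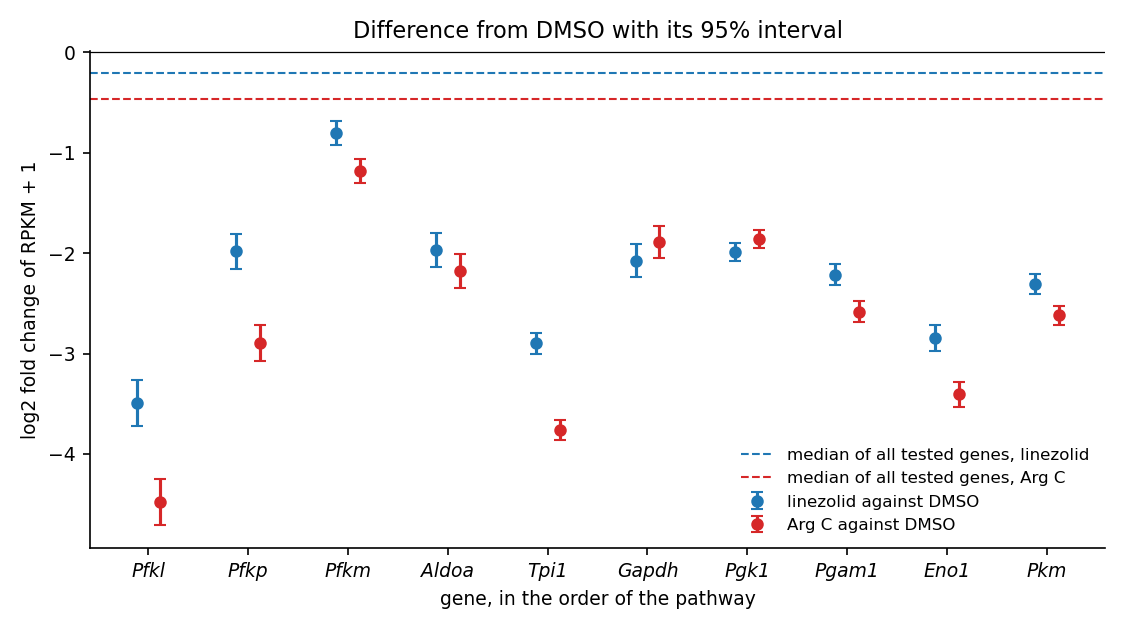
Log2 fold change of RPKM + 1 against DMSO over all cycles (points) with 95% intervals from limma (bars), by gene in pathway order, for linezolid and Arg C; dashed lines give the median of all 11004 tested genes (-0.21 and -0.47). All 20 points lie below their dashed line, and Arg C lies below linezolid for every gene other than Gapdh and Pgk1.

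The phosphofructokinase genes diverged most among themselves. Pfkl (chr10:77986947-78009807), which encodes the liver-type subunit, was at 29.8, 33.2 and 40.6 RPKM in DMSO (lowest, median and highest of 6 samples), at 1.56, 2.11 and 3.08 with linezolid and at 0.385, 0.571 and 0.693 with Arg C. The groups did not overlap, and all Arg C samples lay below 1 RPKM, with 48 to 84 reads behind each. The mean was 60.2 times lower with Arg C than in DMSO and 15.9 times lower with linezolid, and the fitted log2 fold changes were -4.48 ± 0.11 (SE; limma adjusted p = 2.51e-12) and -3.49 ± 0.11 (adjusted p = 3.77e-11). The added 1 RPKM makes these fitted values smaller than the plain ratios.

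Pfkp (chr13:6579874-6649060), the platelet-type subunit gene, was at 41.2, 45.8 and 50.1 RPKM in DMSO, 8.67, 10.5 and 14.1 with linezolid and 3.97, 5.24 and 6.82 with Arg C. Its 3 groups did not overlap either. The log2 fold change was -2.90 ± 0.08 with Arg C and -1.98 ± 0.08 with linezolid. Pfkm (chr15:98092589-98132447), the muscle-type subunit gene, was at 11.5, 12.4 and 13.5 RPKM in DMSO, 5.89, 6.79 and 7.76 with linezolid and 4.06, 5.16 and 5.50 with Arg C. It fell least of the 10 genes, at -1.18 ± 0.06 and -0.80 ± 0.06, and its groups were separate as well.

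The makeup of the phosphofructokinase messages changed accordingly. Pfkl supplied 33.8 to 40.6% of the summed RPKM of the 3 genes in DMSO, 9.21 to 14.3% under linezolid and 3.76 to 6.25% under Arg C. Pfkm went the other way, from 11.7 to 15.2% in DMSO to 32.2 to 36.9% under linezolid and 41.0 to 50.0% under Arg C, although its own level fell. Pfkp changed less, at 46.4 to 52.3%, 50.8 to 58.6% and 45.1 to 53.6%. All of these shares rest on the gene lengths used, and too great a length for Pfkp would understate its share. The sum itself was 88.1 to 103 RPKM in DMSO, 16.9 to 24.1 under linezolid and 8.54 to 12.7 under Arg C. Ratios of 2 genes within a sample do not depend on how the sample was scaled, apart from the added 1 RPKM. The log2 ratio of Pfkm to Pfkl rose by 3.30 ± 0.32 with Arg C (SD over 6 pairs) and by 2.69 ± 0.30 with linezolid, and was higher with Arg C than with linezolid by 0.61 ± 0.12, or by 1.30 with 0.1 RPKM added in place of 1. The ratio of Pfkp to Pfkl rose by 1.58 ± 0.15 and 1.50 ± 0.28, and between the drugs it differed by 0.08 ± 0.16, from -0.03 to 0.40 over the pairs (exact sign-flip test, adjusted p = 0.234). Since Pfkl with Arg C lay below the added 1 RPKM, this ratio depends on it. With 0.1 RPKM added the ratio of Pfkp to Pfkl rose by 2.60 and 1.88, and it was higher with Arg C than with linezolid by 0.72 (exact sign-flip test, adjusted p = 0.0361). Of 30 such ratio tests, 10 ratios in 3 comparisons, 25 reached the smallest p the two-sided exact test allows with 6 pairs (0.0312), an adjusted p of 0.0375. The 6 pairs come from 2 experiments and are not fully independent.

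**Figure D3:**
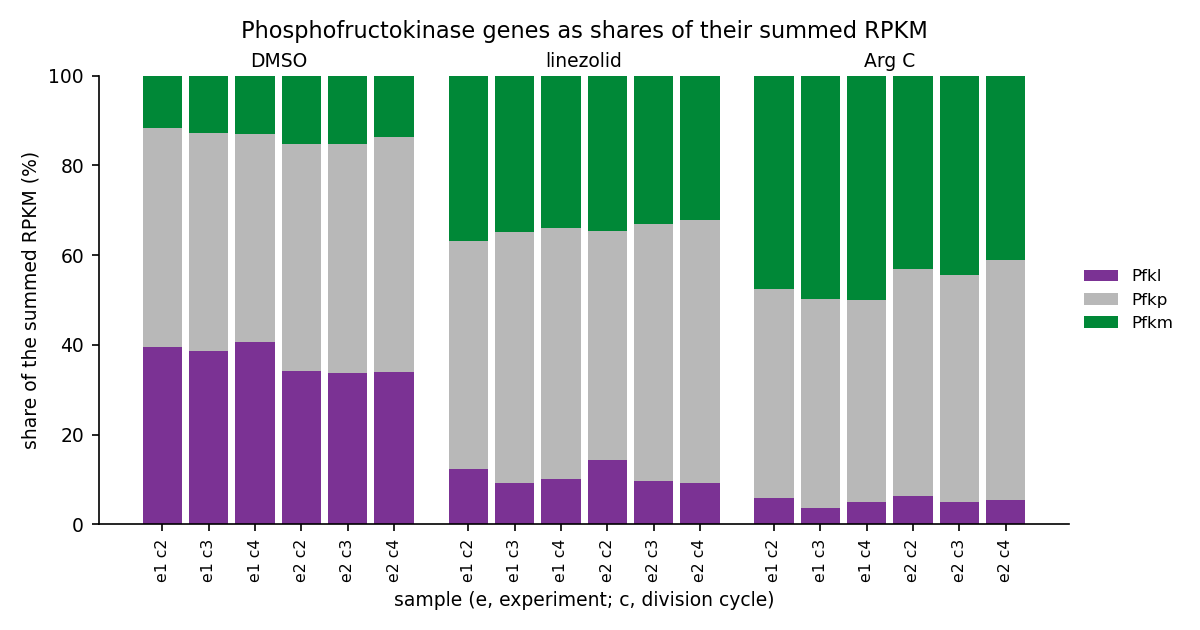
Share of the summed RPKM of Pfkl, Pfkp and Pfkm (%) in each of the 18 samples, by drug, experiment (e) and cycle (c). The Pfkl share falls from 33.8 to 40.6% in DMSO to at most 14.3% with linezolid and at most 6.25% with Arg C, while the Pfkm share grows.

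Among the next steps, Tpi1 stood out from its neighbours. Aldoa (chr7:126795234-126800994) was at 1752, 1985 and 2133 RPKM in DMSO, 384, 484 and 688 with linezolid and 292, 442 and 601 with Arg C. Both drug groups lay below DMSO and overlapped each other. Its log2 fold change was -2.18 ± 0.08 with Arg C and -1.97 ± 0.08 with linezolid.

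Tpi1 (chr6:124810586-124814158) was at 611, 658 and 708 RPKM in DMSO, 72.9, 84.7 and 101 with linezolid and 36.9, 51.0 and 56.9 with Arg C. The 3 groups did not overlap. The mean was 13.6 times lower with Arg C than in DMSO and 7.50 times lower with linezolid (-3.76 ± 0.04 and -2.90 ± 0.04). Relative to Aldoa, Tpi1 fell by a further 1.58 ± 0.28 log2 units with Arg C and 0.93 ± 0.31 with linezolid (exact sign-flip test, adjusted p = 0.0375 for each).

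In the lower pathway Gapdh and Pgk1 fell by similar amounts over all cycles with each drug. Gapdh (chr6:125161852-125166467), often used as a reference gene, was at 840.0, 1051 and 1115 RPKM in DMSO, 198, 238 and 304 with linezolid and 194, 286 and 350.5 with Arg C. Its level was 4.21 times lower with linezolid and 3.66 times lower with Arg C (log2 -2.08 ± 0.07 and -1.89 ± 0.07). Pgk1 (chrX:106187100-106203699) was at 2129, 2396 and 2647 RPKM in DMSO, 478, 619.8 and 737 with linezolid and 499, 672 and 804 with Arg C. Its log2 fold change was -1.86 ± 0.04 with Arg C and -1.99 ± 0.04 with linezolid. For both genes the drug groups overlapped each other and not DMSO. The log2 ratio of Pgk1 to Gapdh differed by 0.03 ± 0.25 between Arg C and DMSO, from -0.35 to 0.35 over the pairs (exact sign-flip test, adjusted p = 0.781), and by 0.09 ± 0.19 between linezolid and DMSO, from -0.27 to 0.27 (adjusted p = 0.356).

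Pgam1, Eno1 and Pkm, the last steps, fell further than Pgk1. Pgam1 (chr19:41911871-41918665) was at 499, 553 and 584 RPKM in DMSO, 102, 118 and 133 with linezolid and 74.9, 92.8 and 104 with Arg C. The drug groups touched only at the edge, 102 against 104 RPKM. Eno1 (chr4:150236708-150248879) was at 969.5, 1034 and 1116 RPKM in DMSO, 124, 140.4 and 169.6 with linezolid and 83.3, 96.8 and 115 with Arg C, with no overlap. Its mean was 10.6 times lower with Arg C and 7.21 times lower with linezolid (log2 -3.40 ± 0.06 and -2.85 ± 0.06). Pkm (chr9:59656576-59679372) was at 1213, 1299 and 1396 RPKM in DMSO, 238, 255 and 303 with linezolid and 169, 216 and 249.7 with Arg C. The counts are per gene, so the splice forms of Pkm that make the muscle and the proliferative enzyme are not separated.

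Set in order of fall with Arg C, the genes ran Pfkl, Tpi1, Eno1, Pfkp, Pkm, Pgam1, Aldoa, Gapdh, Pgk1 and Pfkm. The 95% intervals of Pkm (-2.72 to -2.53) and Pgam1 (-2.69 to -2.48) overlapped, as did those of Aldoa (-2.35 to -2.01) and Gapdh (-2.05 to -1.73), and of Gapdh and Pgk1 (-1.95 to -1.77). The order therefore did not follow position in the pathway: large falls stood at its start (Pfkl), middle (Tpi1) and near its end (Eno1). Along the pathway, the step from Pgk1 to Pgam1 fell by 0.73 ± 0.13 log2 units with Arg C and that from Pgam1 to Eno1 by 0.82 ± 0.07, whereas the ratio of Pkm to Eno1 rose by 0.78 ± 0.09 (exact sign-flip test, adjusted p = 0.0375 for each).

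The direct comparison of Arg C with linezolid set unlike doses side by side, so it compares these cultures and not potency. On the RPKM scale 8 of the 10 genes were lower under Arg C, against 59.8% of tested genes, and 2 were higher, against 7.64%, with medians of -0.37 over the 10 and -0.23 over all. The differences were largest for Pfkl (-0.99 ± 0.11), Pfkp (-0.91 ± 0.08), Tpi1 (-0.86 ± 0.04) and Eno1 (-0.56 ± 0.06). The plain ratios of the means, linezolid over Arg C, were 3.78 for Pfkl, 2.05 for Pfkp, 1.82 for Tpi1 and 1.47 for Eno1, so without the added 1 RPKM Pfkl stood further from the other 3. These 4 were lower also with median-ratio scaling, at -0.84, -0.60, -0.50 and -0.19, where 29.5% of tested genes were lower and 32.1% higher. With that scaling the calls of Pfkm (-0.38 ± 0.06) and Pgam1 (-0.37 ± 0.05) were lost at -0.07 and -0.01, and those of Aldoa (-0.21 ± 0.08) and Pkm (-0.32 ± 0.04) turned to 0.16 and 0.05 without a call.

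Gapdh and Pgk1 were slightly higher with Arg C than with linezolid, at 0.19 ± 0.07 (limma adjusted p = 0.0384; 5 of 6 pairs higher) and 0.13 ± 0.04 (adjusted p = 0.0182; 6 of 6 pairs). Median-ratio scaling gave 0.55 and 0.50 for them. Neither was called within a single experiment or with the cycles averaged. Leaving out 1 sample ended the Gapdh call for 8 of the 18 samples (0.15 to 0.19) and the Pgk1 call for 4 (0.11 to 0.12), all of them Arg C or linezolid samples. The call of Aldoa was lost without any of 7 Arg C or linezolid samples (-0.21 to -0.16). Nor was Aldoa called within a single experiment or with the cycles averaged. Its call was also lost without the filter, without the experiment block, or with rescaling without mitochondrial and ribosomal-protein genes (-0.22 to -0.11 over all these). Within samples, the ratio of Gapdh to Tpi1 was higher with Arg C than with linezolid in 6 of 6 pairs, by 1.05 ± 0.07 log2 units, which no scaling of samples changes apart from the added 1 RPKM.

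By cycle, Arg C lay below linezolid for 7 of the 10 genes in each of cycles 2, 3 and 4, against 48.2, 33.2 and 34.6% of tested genes. With median-ratio scaling the counts were 4, 3 and 3, where 14.1% (cycle 4) to 18.3% (cycle 2) of tested genes were called lower. Gapdh, Aldoa and Pgk1 were not called in any cycle on the RPKM scale. The cycle 3 calls of Pfkm (-0.27, limma adjusted p = 0.0437) and Pkm (-0.22, adjusted p = 0.0465) lay near the threshold. Both were lost without the filter, without the experiment block, or with rescaling without mitochondrial and ribosomal-protein genes. Many runs leaving out 1 sample or technical replicate also lost them, at -0.34 to -0.20 for Pfkm and -0.27 to -0.16 for Pkm. Median-ratio scaling called Pgk1 higher with Arg C in cycles 2, 3 and 4 (0.51, 0.44 and 0.53) and Gapdh in cycles 3 and 4 (0.57 and 0.60). On the RPKM scale the differences in cycle 4 were, for Gapdh, Aldoa and Pgk1, 0.26 (95% interval -0.02 to 0.53), -0.14 (-0.43 to 0.15) and 0.19 (0.02 to 0.35). The count of lower genes in cycle 3 was 4 without the Arg C or the linezolid sample of experiment 1 and 3 without the linezolid sample of experiment 2. In cycle 4 it was 4 without either Arg C sample and 3 without the linezolid sample of experiment 2.

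The next question was whether the genes change as cells divide. In DMSO none of the 10 was called between cycle 4 and cycle 2 by limma, where 7.67% of tested genes were called in either direction. Only Pgk1 had an unadjusted limma p under 0.05 (0.22 ± 0.07, limma adjusted p = 0.0947), and a fit of the 54 libraries as separate samples called 2. The DMSO samples of the experiments ran apart. Gapdh was at 1115, 952 and 840.0 RPKM in cycles 2, 3 and 4 of experiment 1 and at 1063, 1053 and 1049.7 in experiment 2.

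With Arg C, 7 of the 10 genes were higher in cycle 4 than in cycle 2, against 18.3% of tested genes, with medians of 0.42 over the 10 and -0.00 over all. Aldoa rose most, from 366 and 292 RPKM in cycle 2 (experiments 1 and 2) through 523 and 409 to 601 and 475 in cycle 4, a log2 fold change of 0.71 ± 0.13 (limma adjusted p = 0.00178). Pgk1 went from 543 and 499 to 804 and 794 RPKM (0.62 ± 0.07), Gapdh from 239 and 194 to 350.5 and 304 (0.60 ± 0.13), and Tpi1 from 38.2 and 36.9 to 56.3 and 56.9 (0.58 ± 0.08). In each case both cycle 4 samples lay above both cycle 2 samples. Pkm (0.45 ± 0.08), Eno1 (0.40 ± 0.10) and Pgam1 (0.37 ± 0.08) rose less. The phosphofructokinase genes did not pass the test, at 0.02 (95% interval -0.37 to 0.42) for Pfkl, 0.26 (-0.04 to 0.57) for Pfkp and 0.25 (0.04 to 0.46) for Pfkm. The Gapdh call was lost without the cycle 2 sample of experiment 2 (0.48), and that of Eno1 without this sample or the cycle 4 sample of experiment 1 (0.34 to 0.40). Even in cycle 4 every Arg C sample stayed below every DMSO sample of the same gene.

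With linezolid, 6 of the 10 were higher in cycle 4 than in cycle 2, against 15.0% of tested genes, with medians of 0.27 and -0.05. They were Aldoa (0.53 ± 0.13), Pgk1 (0.52 ± 0.07), Gapdh (0.41 ± 0.13), Tpi1 (0.38 ± 0.08), Pgam1 (0.29 ± 0.08) and Pkm (0.25 ± 0.08). With median-ratio scaling the calls of Gapdh (0.48, limma adjusted p = 0.0762) and Pkm (0.32, adjusted p = 0.0886) were lost and Pfkp was called higher (0.32, adjusted p = 0.0267). Eno1 was not called (-0.11, 95% interval -0.32 to 0.11), with 139 and 169.6 RPKM in cycle 2 and 139.5 and 146 in cycle 4. The count was 2 without the cycle 2 or the cycle 4 linezolid sample of experiment 1, and 3 without the cycle 2 sample of experiment 2 or without the experiment block.

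**Figure D4:**
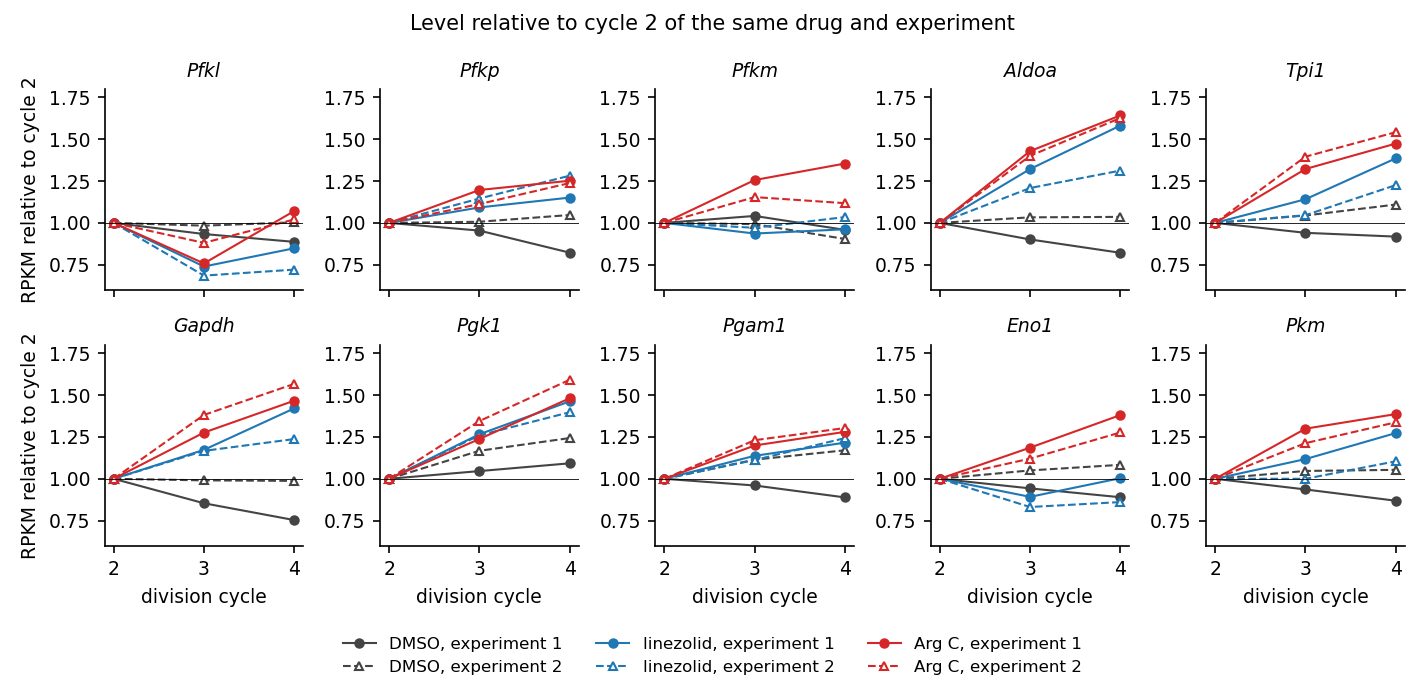
RPKM relative to cycle 2 of the same drug and experiment (vertical axis) against division cycle, 1 panel per gene; colour gives the drug, solid lines experiment 1 and dashed lines experiment 2. Arg C lines rise for the genes from Aldoa to Pkm, to the largest ratio for Aldoa, while the DMSO lines of the experiments part in opposite directions for Tpi1 and Eno1.

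Whether the Arg C effect itself differed between cycle 4 and cycle 2 was tested as an interaction in the same fit. It was smaller in size in cycle 4 for 5 of the 10 genes, against 4.25% of tested genes called in that direction. The differences were 0.83 ± 0.19 for Aldoa, 0.81 ± 0.18 for Gapdh, 0.57 ± 0.11 for Tpi1, 0.51 ± 0.11 for Pkm and 0.40 ± 0.11 for Pgk1. Tpi1 thus went from -4.09 ± 0.08 in cycle 2 to -3.53 ± 0.08 in cycle 4, and Gapdh from -2.33 ± 0.13 to -1.52 ± 0.13. Pfkl had -4.50 ± 0.18 and -4.40 ± 0.18. The Pgk1 call lay near the threshold (limma adjusted p = 0.0402). It was lost without the filter, without the experiment block, with median-ratio scaling, or with rescaling without mitochondrial and ribosomal-protein genes (0.38 to 0.40). Most runs leaving out 1 sample also lost it, at 0.31 to 0.44. Tpi1 kept its call in each alternative run, whereas 1 gene was called with median-ratio scaling, without the experiment block, or without any of the experiment 1 DMSO samples of cycles 2 and 4, the Arg C cycle 4 sample of experiment 1 and the Arg C cycle 2 sample of experiment 2. Without the Arg C cycle 2 sample of experiment 1 the count was 2. For linezolid 0 of the 10 genes passed the same test in limma, against 5.39% of tested genes in either direction. Before adjustment 6 had a limma p under 0.05, a count not made for all tested genes, so the 5.39% is no measure for it. The highest value was 0.64 (95% interval 0.23 to 1.06) for Aldoa. Without the DMSO cycle 4 sample of experiment 2 it was 4 genes, without the linezolid cycle 4 sample of experiment 2 it was 2, and without the DMSO cycle 2 sample of experiment 2 it was 1.

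Between experiments, the size of the fall was tested as an interaction too, in a fit whose p covers no variation between cultures. The Arg C effect was smaller in experiment 2 for Pfkl (by 0.49 ± 0.11) and Pfkp (0.39 ± 0.13), against 16.1% of tested genes called in that direction. The linezolid effect differed likewise for Pfkl (0.62 ± 0.11) and Pfkp (0.41 ± 0.13), against 24.4%. A count of 2 of 10 is near both background shares. For Pfkl with Arg C limma-voom on recovered reads gave 0.80. Both contrasts use the same DMSO samples. Pfkl was at 40.6, 37.9 and 36.0 RPKM in the DMSO samples of experiment 1 and at 30.3, 29.8 and 30.4 in those of experiment 2, and with Arg C at 0.508, 0.385 and 0.544 against 0.679, 0.598 and 0.693. The DMSO level was thus higher, and the Arg C level lower, in experiment 1. The other 8 genes were not called, with medians over the 10 of -0.02 and 0.11 and over all genes of 0.14 and 0.17. The Pfkp calls were lost with median-ratio scaling (0.20 and 0.18), with rescaling or without the filter, and for Arg C also without technical replicate 2 (0.37). By sequencing lane the experiments are also separate, and lane and experiment cannot be told apart.

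Further genes of the same steps were followed from a list of 11, of which 5 passed the filter. Fold changes of low genes are understated by the added 1 RPKM. For larger differences here and in the other lists, some values by limma-voom on recovered reads, which does not add 1 RPKM, are therefore given. Values with median-ratio scaling keep the added 1 RPKM and show only how far the scaling matters. With Arg C 3 fell and 2 rose, against 70.0% of all tested genes called lower and 16.5% called higher. With linezolid 3 fell and 2 rose, against 54.5 and 21.0%. Aldoc, a second aldolase gene, was at 78.5, 82.4 and 85.9 RPKM in DMSO, 10.5, 14.5 and 21.9 with linezolid and 4.43, 7.08 and 10.1 with Arg C (log2 -2.39 ± 0.13 with linezolid and -3.45 ± 0.13 with Arg C). It fell further than Aldoa with each drug and lay far below it in level. Of the enolase genes, Eno2, the neuronal form, fell with Arg C (-0.86 ± 0.09) and with linezolid (-0.27 ± 0.09, and -0.04 with no call after median-ratio scaling), while Eno3, the muscle form, rose from a median of 1.59 RPKM to 2.55 with Arg C and 2.27 with linezolid (0.50 ± 0.07 and 0.39 ± 0.07). Median-ratio scaling gave -0.38 for Eno2 and 0.94 for Eno3 with Arg C, and limma-voom gave 0.75 for Eno3 with Arg C and 0.60 with linezolid. The medians of Eno2 were 4.32 RPKM in DMSO and 1.99 with Arg C, so Eno3 lay below Eno2 in DMSO and above it with Arg C. The second gene that rose, outside the rule for named genes, was Bpgm, for bisphosphoglycerate mutase (0.42 ± 0.06 with Arg C and 0.16 ± 0.06 with linezolid, or 1.01 and 0.41 with median-ratio scaling). Eno1b completes the list and is described next. Pklr, the pyruvate kinase gene of liver and red cells, and Pgk2 and Pgam2 were listed at 0 in every sample.

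Copies whose reads could be shared with a member were low. Eno1b, a near copy of Eno1, had medians of 0.707 RPKM in DMSO and 0.083 with Arg C, and Gapdh-ps15, a processed copy of Gapdh, had 2.07 and 0.583. How the counting split reads between copies is not given in the sources used here, so their values are uncertain. Against 1034 and 1051 RPKM for the medians of Eno1 and Gapdh in DMSO, these levels are small.

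The regulators of fructose 2,6-bisphosphate, the strongest known activator of phosphofructokinase, fell as well, 4 of the 4 tested with each drug, where 70.0% of all tested genes fell with Arg C and 54.5% with linezolid. Pfkfb3, a kinase that makes it, was at 29.9, 36.0 and 40.6 RPKM in DMSO, 17.9, 18.7 and 21.3 with linezolid and 13.5, 14.9 and 15.5 with Arg C (log2 -0.86 ± 0.06 with linezolid and -1.22 ± 0.06 with Arg C). Pfkfb4 fell by 0.48 and 1.02, and Pfkfb2 by 0.31 and 0.44, with linezolid and Arg C. Their levels are low, and limma-voom gave Pfkfb2 -1.13 with linezolid and -1.91 with Arg C, and Pfkfb4 -1.69 with Arg C. Tigar, a phosphatase that removes the activator, fell by 0.72 ± 0.09 and 1.20 ± 0.09, from a median of 1.97 RPKM to 0.787 and 0.385, and had -1.24 and -2.61 by limma-voom. Median-ratio scaling gave -0.57 and -0.59 for Pfkfb3, -0.27 and -0.62 for Pfkfb4, and -0.28 for Pfkfb2 with Arg C. Pfkfb2, Pfkfb3, Pfkfb4 and Tigar therefore moved in the same direction.

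Of 7 genes of gluconeogenesis, which reverses the pathway, 3 passed the filter, and Fbp1 and Fbp2, which encode the enzymes opposing phosphofructokinase, were listed at 0 in every sample. Pcx, for pyruvate carboxylase, fell (-2.08 ± 0.07 with Arg C and -1.64 ± 0.07 with linezolid). Pck2, the mitochondrial phosphoenolpyruvate carboxykinase gene, rose from a median of 18.1 RPKM to 42.4 with Arg C and 41.1 with linezolid (1.16 ± 0.06 and 1.06 ± 0.06), or 1.80 with Arg C by median-ratio scaling. G6pc3, for a glucose 6-phosphatase, was at -0.00 ± 0.06 with Arg C (limma adjusted p = 0.944) and fell by 0.24 ± 0.06 with linezolid; median-ratio scaling gave 0.62 with a call and 0.04 without one.

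At the entry and exit of glycolysis 9 of 10 tested genes fell and 1 rose with each drug, against 70.0 and 54.5% of tested genes called lower, with medians of -2.56 for Arg C and -2.05 for linezolid. Slc2a1, the glucose transporter gene, had -3.32 ± 0.06 and -2.95 ± 0.06, Hk2, a hexokinase gene, -4.02 ± 0.10 and -3.29 ± 0.10, Ldha, for lactate dehydrogenase, -2.24 ± 0.05 and -1.85 ± 0.05, and Slc16a3, for a lactate exporter, -4.23 ± 0.10 and -3.06 ± 0.10, Arg C first. Hk2 went from a median of 17.9 RPKM to 0.275 with Arg C and had -6.23 by limma-voom, below the -4.55 of Slc16a3, so the order of these genes depends on the added 1 RPKM. The gene that rose, outside the rule for named genes, was Ldhb, the other lactate dehydrogenase subunit (0.16 ± 0.05 and 0.17 ± 0.05). Median-ratio scaling gave 0.79 and 0.45 for Ldhb.

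Among factors known to drive the pathway, 3 of 4 fell with Arg C, which is near the 70.0% of all tested genes called lower. Hif1a, the oxygen-regulated part of HIF-1, was at 143, 166 and 186 RPKM in DMSO, 91.9, 101 and 119 with linezolid and 45.5, 60.6 and 85.8 with Arg C, and fell by 0.64 ± 0.12 with linezolid and 1.44 ± 0.12 with Arg C, or by 0.35 and 0.79 with median-ratio scaling. Its 3 groups did not overlap. Myc fell from a median of 38.1 RPKM to 8.72 with linezolid and 8.12 with Arg C (-1.98 ± 0.13 and -2.10 ± 0.13). Its partner Max fell by 0.56 ± 0.04 with linezolid and by 0.35 ± 0.04 with Arg C, but the latter turned to 0.28, called higher, with median-ratio scaling, while the value for linezolid went to -0.27. Arnt, the partner of Hif1a, was at 0.05 ± 0.05 with Arg C (limma adjusted p = 0.345) where median-ratio scaling gave 0.68 with a call, and rose with linezolid (0.31 ± 0.05, or 0.60 with that scaling). Levels of RNA do not show HIF-1 protein or activity, which was not measured.

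The members' own profiles over the 18 samples correlated with their mean standardised profile at Pearson's r of 0.967 (Pfkm and Gapdh) to 0.999 (Pgam1). That mean includes the gene itself, which raises r, so these values cannot be compared with those of other genes. The 5 other genes most like that mean profile, among those of at least 5 RPKM on average, were Prelid2 (r = 0.997), Ldha (0.997), Ero1l (0.996), Slc2a1 (0.996) and Tubb6 (0.995). Ero1l, for an oxidase of the endoplasmic reticulum, had medians of 143, 15.7 and 11.6 RPKM in DMSO, linezolid and Arg C, and Prelid2 85.7, 7.31 and 5.69. All of these correlations include the gap between the DMSO and the drug samples, and they are given as a description.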

How the data were processed

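Per the labels' protocols, total RNA of dye-sorted Th17 cells was sequenced in 54 libraries, 3 technical replicates of 18 samples. Judged by their form, the sample identifiers place these replicates on different lanes, so that each could be a repeat run of 1 library. Per the submitters' processing notes CASAVA and GRCm38.p5 were used; the aligner, counting tool, annotation and strand were not given in the sources used here. Values came in 1 table, deposited by the authors with no named unit and read here as RPKM: whole reads came out for 19277 of 19284 genes with any value (tolerance 0.0001 of a read), giving 8.0 to 12.5 M reads per library. Pfkl with Arg C has the fewest reads among the 10 genes and the lowest precision. No column was left out.

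The main test was limma 3.58.1 in R 4.3.3 (lmFit, then eBayes with a trend) on log2(RPKM + 1) of 18 samples, with 1 coefficient for each combination of drug and cycle plus an experiment block. The filter kept genes reaching 0.5 RPKM in 2 or more samples. Drug by experiment was tested in a fit with the cycle as a block. Ratios were tested over 6 matched pairs by an exact two-sided sign-flip permutation test. The fit was tested on simulated data. The members and the gene lists were chosen with earlier results of these data known. Named genes were the 10 members, up to 4 per list by smallest p for Arg C, and the 5 genes nearest to the members' profile; Pgk2, Pgam2, Pklr, Fbp1, Fbp2, Bpgm and Ldhb were named besides, after their values were seen. Alternatives were another pseudocount (0.1), other filters, scalings, blocks and limma-voom on recovered reads, and leaving out samples, technical replicates and experiments. Promoters are from RefSeq and protein sequences were not used here.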

Additional observations from a re-analysis of the deposited data

Results flagged for a closer look

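The effect of Arg C differed between cycle 4 and cycle 2 by limma's test of the interaction for 5 genes, each nearer to DMSO in cycle 4: Aldoa by 0.83, Gapdh by 0.81, Tpi1 by 0.57, Pkm by 0.51 and Pgk1 by 0.40 log2 units. Of these Tpi1 kept its call in every alternative run. The calls of the others were lost with median-ratio scaling and without the experiment block.

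The effect of both drugs differed between experiments for Pfkl and Pfkp, in fits that hold no variation between cultures. It was smaller in experiment 2 by 0.49 (Pfkl) and 0.39 (Pfkp) with Arg C, and by 0.62 (Pfkl) and 0.41 (Pfkp) with linezolid. Over all tested genes 16.1% (Arg C) and 24.4% (linezolid) were called in that direction, near the 2 of 10 here, and the Pfkp calls were lost with median-ratio scaling (0.20 and 0.18). Both drugs share the DMSO samples of each experiment. No sample stood apart from the other 5 of its drug for any of the 10 genes, in 30 groups checked, where chance alone gives about 1 in 20.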

How the results depend on the processing

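Every fall of the 10 genes with Arg C or linezolid against DMSO, over all cycles and in each cycle, kept its direction and call in every alternative that could be fitted, samples left out included. The direct comparison of the drugs and the changes with division were less stable, and except as said the cause was not tested. With median-ratio scaling the genes called lower over all cycles numbered 4558 instead of 7699 (Arg C), 3997 instead of 5996 (linezolid) and 3245 instead of 6576 (Arg C against linezolid, with 3536 instead of 841 higher). That scaling called 4 members lower instead of 8 in the direct comparison, and 4, 3 and 3 instead of 7 in cycles 2, 3 and 4. It reversed Aldoa (0.16) and Pkm (0.05) over all cycles, Pfkm (0.01), Pgam1 (0.00) and Pkm (0.11) in cycle 3, and Pkm (0.08) in cycle 4. It also called 1 member instead of 5 in the Arg C cycle interaction and 1 instead of 2 in both experiment interactions, as did rescaling without mitochondrial and ribosomal-protein genes for the latter. For Arg C against linezolid, experiment 1 alone gave 4301 genes lower, 401 higher, 5 members lower and 0 higher; experiment 2 alone 0 members higher; and cycles averaged, with 2 units per drug, 3862, 188 and 0 members higher. Without the filter 1 member was higher there, 3 were called in the Arg C cycle interaction and 1 in each experiment interaction. Without the experiment block 1 member was higher in the direct comparison, 3 between linezolid cycles and 1 in the Arg C cycle interaction, where 84 genes were called instead of 468.

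No technical pairing was found: libraries of different samples with the same technical replicate number and experiment had deviations with correlations of -0.072 to 0.081 (216 pairs). With the 54 libraries and the replicate block, which counts technical replicates as samples, 1289 genes were higher in the direct comparison, 2 members were called between DMSO cycles, 3410 and 2988 genes were higher in cycle 4 with Arg C and linezolid instead of 2017 and 1647, 2242 genes and 9 members in the Arg C cycle interaction, and 7 members in that of linezolid.

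Leaving out 1 sample or technical replicate gave 7540 to 7748 (Arg C) and 5623 to 6155 (linezolid) genes lower, 6011 to 6693 lower and 681 to 863 higher in the direct comparison, with 7 to 8 members lower and 0 to 2 higher. In cycles 2, 3 and 4 members lower there were 7 to 8, 3 to 7 and 3 to 7. Between cycles 1327 to 2091 genes and 5 to 8 members were higher with Arg C, and 997 to 1744 and 2 to 6 with linezolid. The Arg C cycle interaction had 144 to 478 genes and 1 to 5 members, that of linezolid 0 to 4 members, and the experiment interaction 1 to 2 members for Arg C. Each lone sample left is assumed to vary like the other groups. Of the 30 ratio tests, a pseudocount of 0.1 added Pfkp to Pfkl between the drugs (0.72 log2 units, adjusted p = 0.0361). Pfkl with Arg C rests on 48 to 84 reads per sample.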
